A study of Sus scrofa with 79 samples.

Results

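The enzymes and transporters that handle drugs, steroids, bile acids and vitamin D in the gut were followed in jejunum, ileum and blood of pigs of 3 ages. They were taken as all genes with an array probe whose RefSeq accession carries a symbol that starts with CYP and a digit, with UGT, GST or SULT, or with ABCA to ABCG and a digit. This gave 32 genes with 80 probes, out of 36787 gene names on the array, of which 2389 had a RefSeq symbol. There were 25 cytochrome P450 (CYP) genes with 65 probes, 2 glutathione S-transferases (GST) with 2, 3 sulfotransferases (SULT) with 5 and 2 ATP-binding cassette (ABC) genes with 8. The RefSeq names hold 96 such symbols, 38 CYP, 41 ABC, 7 GST, 6 SULT and 4 UDP-glucuronosyltransferases (UGT). The symbols without a matched probe, all UGT genes and ABCB1 among them, were not analysed here.

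The study asked how an antibiotic early in life, alone or with routine handling, acts on the developing gut. Up to sampling at day 8, piglets of TOPIGS20 sows stayed with their mother in mixed litters of 3 treatments. The study's methods do not say how animals were kept until days 55 and 176. Animals of T1 were left undisturbed and were only handled for blood sampling at day 8 after birth. Those of T2 were injected under the skin of the neck with 0.1 ml tulathromycin, a macrolide antibiotic, at 2.5 mg/kg body weight on day 4, and those of T3 got the same injection together with docking, clipping and weighing. RNA was pooled from 4 piglets of a treatment for each array, so a replicate is a pool and the spread between pools understates that between animals. There were 79 arrays, 12 of jejunum, 11 of ileum and 12 of whole blood at day 8, and 11 of each gut segment at day 55 and at day 176, with 3 or 4 pools per treatment. Age comparisons averaged the 3 treatments equally.

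CYP enzymes add an oxygen atom to drugs, dietary compounds, steroids and fatty acids, and the conjugating enzymes of the GST, SULT and UGT families then attach a polar group. ABC transporters such as ABCG2 pump many of the products back into the gut lumen. In the small intestine these proteins sit mainly in the absorptive epithelium, where nuclear receptors such as PXR (NR1I2) and CAR (NR1I3) and the aryl hydrocarbon receptor regulate many of their genes. Several CYP members have other roles, in the synthesis of cholesterol, bile acids and steroid hormones or in the inactivation of vitamin D.

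Signal was well above background for 46.9 to 75.2% of probes on jejunum arrays, for 42.4 to 73.1% on ileum arrays and for 34.8 to 44.1% on blood arrays. The arrays lay on 11 slides scanned on 4 days. Both segments at day 8 shared a scan day, as did both at day 176, while jejunum of day 55 was scanned with blood and ileum of day 55 on a day of its own. Age and scan day therefore cannot be told apart, nor can segment and scan day at day 55. Arrays named jejunum and ileum differed in regional genes at days 55 and 176, where FABP1, FABP2, APOA1, APOA4 and CCK were lower in ileum and the B cell gene CD79A was higher (log2 difference 3.92 ± 0.62, adjusted p = 5.2e-07 at day 55, limma). The ileal bile acid binding gene FABP6 was not called at either age (1.08 ± 1.07, adjusted p = 0.42 and 2.09 ± 1.07, adjusted p = 0.12, limma). Its medians at days 55 and 176 were 17.89 and 18.14 in jejunum, and 18.10 and 18.49 in ileum. The mean of 2 ileal enterocyte markers had a higher median in jejunum at both ages (15.81 against 15.28, and 16.22 against 15.61). At day 8 none of the named genes differed. FABP6 then ranged from 5.82 to 16.16 in jejunum and from 5.62 to 16.48 in ileum, against differences of 0.045 to 1.57 between both segments of a pool. The day 8 segments are thus compared as labelled, and the age differences were refitted with the day 8 labels exchanged, which is given where it ended, turned or made a call. Gut results of days 8 and 55 rest on the scanner file labels. The authors' value table names other tissues or days for the matching arrays, as described with the processing. There were 5 arrays that stood apart from the rest of their group, 2 of day 8 (jejunum T2 pool 8 and ileum T1 pool 11) and 3 of jejunum at day 176 (T1 pool 9, T2 pool 8 and T3 pool 4).

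Levels below are log2 processed signals after quantile normalisation over the 67 gut arrays unless stated, with lowest and highest pool and the median, and they are not comparable between genes, since each probe has its own response. Differences are log2 differences ± SE from limma, and a gene was called at an adjusted p below 0.05 and a fold above 1.5. Of the 32 genes, 28 passed the filter on dim probes or missing spots in gut. CYP7A1, CYP19A2 and CYP27B1 did not, being well above background on at most a few arrays, and SULT1E1 lacked a spot on 1 array. Signal was well above background on all 67 arrays for 14 of the 28, on some for 13 and on none for CYP19A3. Where 1 side of a comparison was not well above background, "at least" compares the mean of the brighter side with a bound for the dimmer one, per array the higher of its own signal and the lowest signal of any probe well above background. In such bulk samples fewer cells of a type and less RNA per cell cannot be told apart.

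Between day 8 and day 55 the gut levels of these genes moved in both directions. In jejunum 17 of the 28 were called, 8 higher and 9 lower at day 55, where 37.1% of all 30816 genes tested were called (18.1% higher and 18.9% lower). In ileum 22 were called, 9 higher and 13 lower, where 47.3% of all genes were (24.4% and 23%). Pools of both ages did not overlap for 5 genes in jejunum and 6 in ileum, against 12.9% and 14.5% of all genes. The median difference of the 28 was −0.22 in jejunum and −0.32 in ileum, against 0.03 and 0.11 over all genes. Between day 55 and day 176, 17 were called in jejunum, 10 higher and 7 lower, where 36.9% of all genes were called (20.1% and 16.9%). In ileum 11 were called, 4 higher and 7 lower, against 28.3% (15.4% and 12.9%). Pools of days 55 and 176 did not overlap for 3 genes in jejunum and 0 in ileum, against 4.96% and 4.57% of all genes. Median differences of this later interval were 0.03 and 0.12, against 0.01 and −0.01 over all genes.

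The segments differed in few of these genes at day 8 and in more at both later ages. At day 8, 1 of the 28 was called, lower in ileum, with 2.5% of all genes called (0.458% higher and 2.04% lower), and 5 (of all genes 20.3%) had an unadjusted p below 0.05. At day 55 there were 18, 6 higher and 12 lower in ileum, where 39.8% of all genes were called (19.8% and 20%). At day 176 there were 13, 3 higher and 10 lower, against 28.8% (14% and 14.8%). With slide as a fixed block, 2 of these 13 calls of day 176 were kept, those of CYP2C49 and SULT1A3. At that age only slide 10 held both segments, as ileum of T1 and jejunum of T3. At day 8 only slide 3 did, as jejunum of T1 and ileum of T3. These fits separate slide from segment through the treatment terms alone and have little power. A call lost in them therefore does not decide between slide and segment. Pools of both segments did not overlap for 0, 8 and 4 genes at the 3 ages, against 0.013%, 9.87% and 4.58% of all genes. The median ileum minus jejunum difference was −0.07, −0.47 and −0.28 at the 3 ages, against 0.02, 0.03 and −0.07 over all genes. The age difference from day 8 to day 55 itself differed between the segments for 17 genes (7 higher and 10 lower in ileum, all genes 34.4%, 17.1% and 17.3%), and that from day 55 to day 176 for 7 (4 higher and 3 lower, all genes 30.6%, 13.9% and 16.7%). When arrays were scaled by their 75th percentile in place of quantiles, these became 11 higher of 20 called and 4 higher of 16 called, and the segment count of day 176 became 2 higher of 17. The share of all genes called also rose with this scaling, to 51.7%, 53.2% and 38.4% in these comparisons in turn.

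Cell type markers moved with segment and age. Of 7 epithelial markers tested, 5 were lower in ileum than in jejunum at day 55 and 4 at day 176, with medians of −0.79 and −0.76 (all genes 20% and 14.8% lower, medians 0.03 and −0.07), and none was called at day 8. The mean level of these markers per array ranged from 15.67 to 16.12 in jejunum and from 14.66 to 15.23 in ileum at day 55. At day 176 it ranged from 15.07 to 15.84 and from 14.44 to 15.04. Of 8 leukocyte markers, 6 were higher at day 55 than at day 8 in jejunum and all 8 in ileum, where 18.1% and 24.4% of all genes were higher. Their mean level per array was 5.74 to 8.35 in jejunum and 6.55 to 7.91 in ileum at day 8, and 8.70 to 9.63 and 9.57 to 10.14 at day 55. The part of these cells in the results on the enzymes was not tested.

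**Figure D1:**
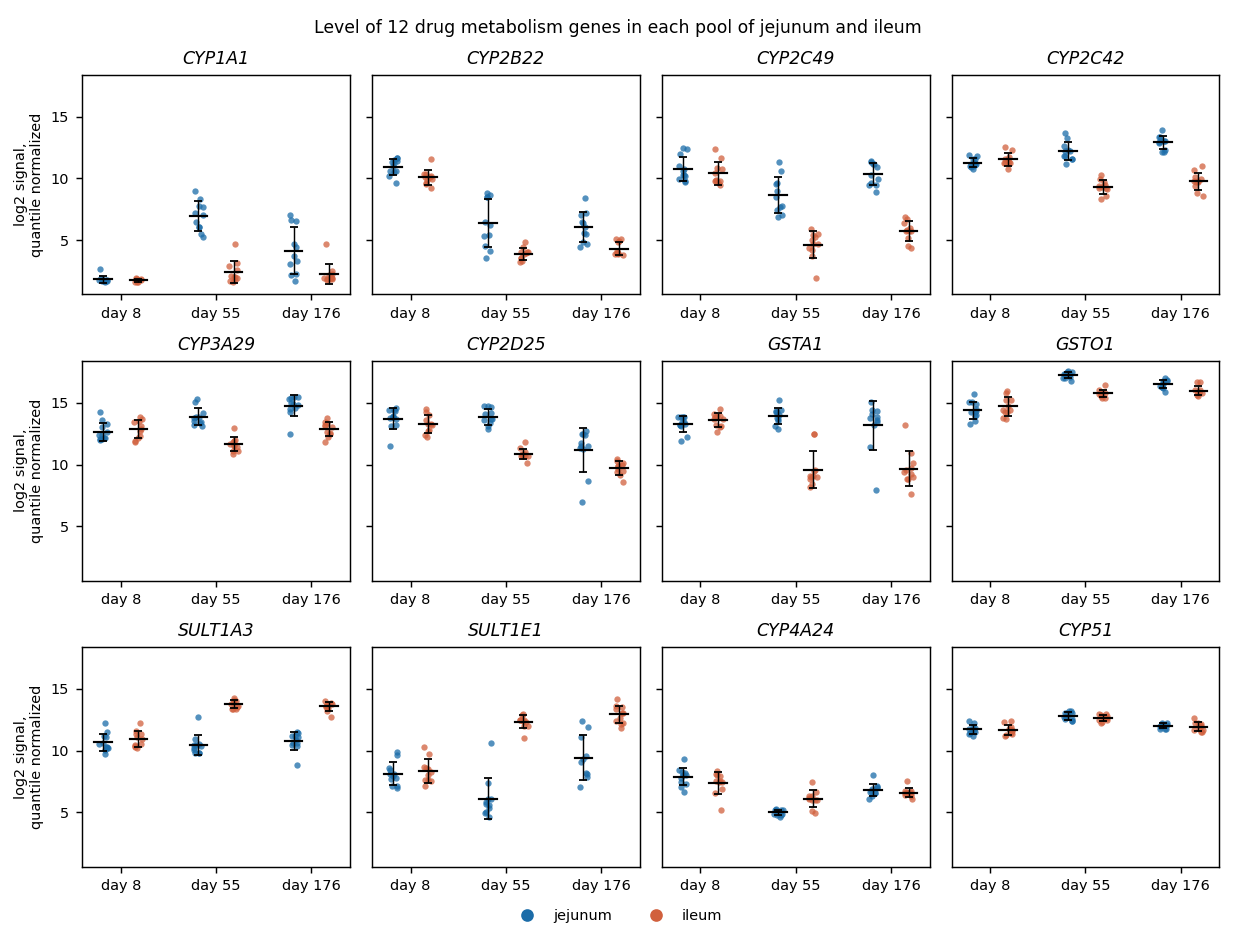
Log2 processed signal (vertical axis, quantile normalised over 67 gut arrays) of 12 enzyme genes in jejunum and ileum at days 8, 55 and 176 (horizontal axis), 1 panel per gene. Points are pools, lines mark group means and bars the SD, and levels are not to be compared between panels. The segments overlap at day 8 in all panels. At day 55 they overlap for CYP2B22, CYP4A24 and CYP51 and are separated without overlap in the other panels.

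Of the drug-oxidising CYP genes, CYP2B22 had the largest fall from day 8 to day 55 in both segments. CYP2B22, the pig member of the CYP2B family, which oxidises many drugs, had levels of 9.65 to 11.67 (median 11.10) in jejunum and 9.23 to 11.56 (median 10.09) in ileum at day 8. At day 55 its levels were 3.55 to 8.78 (median 6.19) and 3.24 to 4.85 (median 3.95), with no overlap with day 8 in either segment. The difference was −4.64 ± 0.45, adjusted p = 9.2e-13 in jejunum, 24.9-fold lower, and −6.27 ± 0.46, adjusted p = 3.09e-17 in ileum, 77.1-fold lower. With the day 8 labels exchanged it was −3.84 and −7.07, so the age loss did not rest on which segment of day 8 was which. The difference in loss between the segments was −1.63 ± 0.64, adjusted p = 0.0398, and it was no longer called in 14 of 67 refits without 1 array, without T3 arrays (−1.72, adjusted p = 0.126) or with arrays scaled by their 75th percentile (−1.12, adjusted p = 0.144). From day 55 to day 176 CYP2B22 was not called, with levels of 4.42 to 8.37 (median 6.07) and 3.79 to 5.13 (median 3.96), and it was lower in ileum at both ages (−2.43 ± 0.46 and −1.73 ± 0.46), the latter being −1.82 with slide as a block (adjusted p = 0.434).

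Of the 3 CYP2C genes, which oxidise many acidic and neutral drugs, CYP2C49 and CYP2C42 separated the segments at day 55. CYP2C49 had levels of 9.69 to 12.42 (median 10.40) in jejunum and 9.43 to 12.39 (median 9.89) in ileum at day 8. At day 55 it had 6.90 to 11.31 (median 8.47) in jejunum and 1.91 to 5.87 (median 4.72) in ileum, where 8 of 11 arrays were well above background. All ileum pools of day 55 lay below all jejunum pools of that age and below all ileum pools of day 8. The age difference was −2.07 ± 0.44, adjusted p = 9.77e-05 in jejunum and −5.78 ± 0.45, adjusted p = 3.61e-16 in ileum, and these differed by −3.71 ± 0.63, adjusted p = 5.08e-06. At day 176 it was 3.14-fold higher than at day 55 in jejunum (1.65 ± 0.45, adjusted p = 0.00224). It was 16.7-fold lower in ileum than in jejunum at day 55 (−4.07 ± 0.45, adjusted p = 1.14e-10) and 24.9-fold lower at day 176 (−4.64 ± 0.45, adjusted p = 3.88e-12), the latter also with slide as a block (−4.20, adjusted p = 0.0426).

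CYP2C42 moved in opposite directions in the segments. In jejunum it had 10.78 to 11.89 (median 11.17) at day 8, 11.16 to 13.64 (median 12.19) at day 55 and 12.15 to 13.88 (median 13.01) at day 176. In ileum it had 10.78 to 12.55 (median 11.31), 8.31 to 10.31 (median 9.27) and 8.55 to 11.01 (median 9.77). All ileum pools of days 55 and 176 were below all jejunum pools of the same age, while at day 8 the segments overlapped. The difference from day 8 to day 55 was 0.96 ± 0.25, adjusted p = 0.00116 in jejunum and −2.20 ± 0.26, adjusted p = 1.59e-10 in ileum, and the difference between both was −3.16 ± 0.36, adjusted p = 9.14e-10. The further rise to day 176 in jejunum (0.73 ± 0.26, adjusted p = 0.0156) was lost without T2 pool 5 of jejunum at day 55 and with arrays scaled by their 75th percentile (0.45). Ileum was 7.4-fold lower at day 55 and 9.13-fold lower at day 176, although with slide as a block the latter was −2.40 with an adjusted p of 0.121. CYP2C33, the other CYP2C gene, lay at 1.80 to 4.09 (median 2.73) in jejunum at day 55, near background, and was called in 1 gut comparison, higher at day 176 in jejunum (0.71 ± 0.23, adjusted p = 0.00856), which was lost in 4 of 67 refits (lowest difference 0.20), those without T1 pool 9 of ileum at day 8, T3 pool 1 of ileum and T2 pool 7 of jejunum at day 55, or T1 pool 9 of ileum at day 176. With arrays scaled by their 75th percentile CYP2C33 was called higher in ileum at day 55 than at day 8 (0.88) and than in jejunum (1.03), where quantile normalisation gave −0.25 ± 0.23 and −0.09 ± 0.23. Probes of such closely related genes can pick up each other's transcripts, so the split between CYP2C members is uncertain.

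The CYP3A genes, whose products oxidise the widest range of drugs in liver and gut, did not move as 1 group. CYP3A29 had levels of 12 to 14.27 (median 12.40), 13.12 to 15.32 (median 13.79) and 12.47 to 15.51 (median 14.88) in jejunum at the 3 ages, and 11.84 to 13.88 (median 12.89), 10.82 to 12.92 (median 11.62) and 11.82 to 13.77 (median 13.03) in ileum. At day 55 it was higher than at day 8 in jejunum (1.22 ± 0.30, adjusted p = 0.000744) and lower in ileum (−1.26 ± 0.31, adjusted p = 0.000492), and the segments differed in this by −2.48 ± 0.44, adjusted p = 7.93e-06. It was higher at day 176 than at day 55 in both (jejunum 0.82 ± 0.31, ileum 1.25 ± 0.31), the jejunum call being lost in 5 of 67 refits, those without T2 pool 5 or 7 or T1 pool 9 of jejunum at day 55, or T2 pool 5 or 6 of jejunum at day 176, and with the 75th percentile scaling (0.54). CYP3A46 instead had 12.09 to 13.75 (median 12.87) in jejunum and 9.95 to 13.35 (median 12.57) in ileum at day 8, and was lower at day 55 in both (−1.75 ± 0.29 and −2.43 ± 0.29). The difference between the segments in this age effect was not called (−0.69 ± 0.41, adjusted p = 0.191), but it was with the day 8 labels exchanged (−1.69, adjusted p = 0.000863) and without the 5 arrays that stood apart (adjusted p = 0.0221), so it is not settled. CYP3A46 was higher at day 176 than at day 55 in jejunum (0.76 ± 0.29, adjusted p = 0.0302), a call lost in 8 of 67 refits and with the 75th percentile scaling (0.60). Both genes were lower in ileum at day 55 (CYP3A29 −2.27 ± 0.31, CYP3A46 −1.19 ± 0.29) and at day 176 (−1.84 ± 0.31 and −1.66 ± 0.29). With slide as a block the day 176 differences were −2.89 (adjusted p = 0.0723) and −2.30 (adjusted p = 0.247).

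CYP2D25, a pig CYP2D enzyme that also hydroxylates vitamin D, fell in ileum but was not called in jejunum up to day 55. It had 11.52 to 14.56 (median 13.84) and 12.88 to 14.74 (median 13.68) in jejunum at days 8 and 55, with no call (0.15 ± 0.37, adjusted p = 0.762). In ileum it had 12.25 to 14.50 (median 13.27) and 10.15 to 11.83 (median 10.76), without overlap between the ages (−2.45 ± 0.38, adjusted p = 2.17e-07). At day 176 it was lower than at day 55 in both segments, with 6.97 to 12.73 (median 11.54) in jejunum (−2.80 ± 0.38, adjusted p = 2.54e-08) and 8.57 to 10.45 (median 9.88) in ileum (−1.17 ± 0.38, adjusted p = 0.0117). The lowest jejunum value of day 176 was that of T2 pool 8, an array that stood apart, and without the 5 such arrays the jejunum difference was −2.05. Ileum was lower than jejunum by −3.02 ± 0.38 at day 55, with no overlap, and by −1.39 ± 0.38 at day 176, or by −2.13 without the 5 arrays and −4.38 with slide as a block (adjusted p = 0.138).

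CYP1A1, which oxidises polycyclic aromatic compounds and is induced through the aryl hydrocarbon receptor, was measured above background mainly in jejunum of day 55. There it was well above background on 11 of 11 arrays, with levels of 5.24 to 8.95 (median 7.03). It was so on 0 of 12 jejunum and 0 of 11 ileum arrays at day 8, on 0 of 11 ileum arrays at day 55, and on 4 of 11 jejunum and 1 of 11 ileum arrays at day 176. The jejunum level was at least 13.1-fold higher at day 55 than at day 8 (adjusted p = 1.28e-14) and at least 5.51-fold higher than in ileum at day 55 (adjusted p = 2.45e-12), without overlap in either case. At day 176 jejunum had 1.71 to 7.04 (median 3.68), a difference of −2.81 ± 0.45, adjusted p = 7.79e-07 from day 55, or −3.42 without the 5 arrays that stood apart. This rests on 1 of the 2 CYP1A1 probes, the other having passed no filter in gut. CYP1A2, CYP2E1 and CYP2A19, other drug-oxidising members, lay near background, with highest pools of 6.31, 4.88 and 4.73 in any gut group. CYP2A19 was lower at day 55 and higher at day 176 in jejunum (−0.59 ± 0.11 and 0.69 ± 0.12), the first call being lost in 8 of 67 refits and with the day 8 labels exchanged (−0.42). Of its 6 probes, 5 moved that way at the first step and 4 at the second. CYP2E1 was well above background on at most 2 arrays of any group, so its calls of 0.64, 0.83 and −0.73 have no firm size, and the first was lost with the day 8 labels exchanged (0.51).

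**Figure D2:**
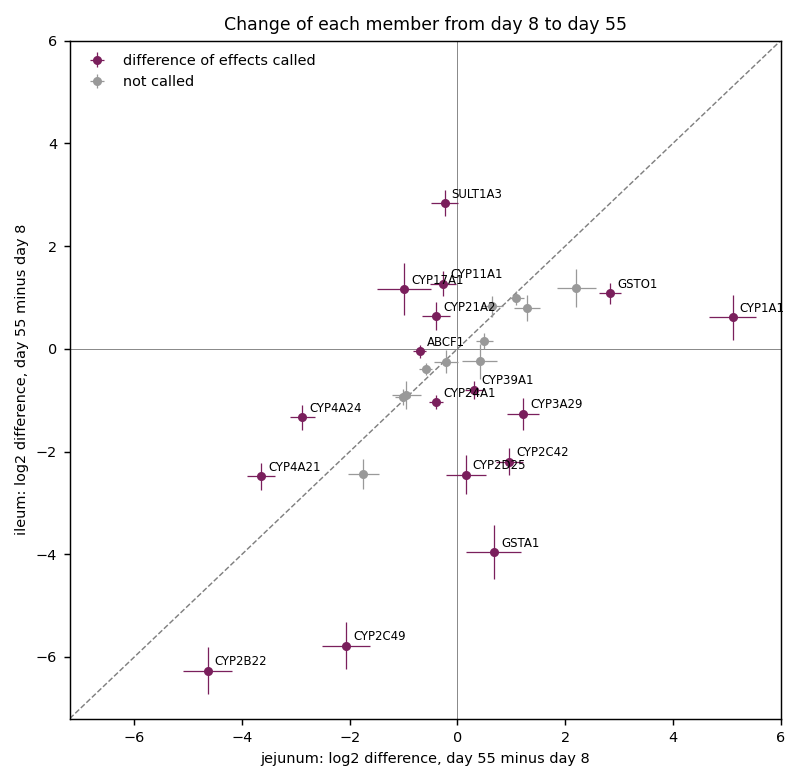
Log2 difference between day 55 and day 8 in jejunum (horizontal axis) and in ileum (vertical axis) for the genes tested in gut, 1 point per gene with SE bars, coloured where the difference between the segments was called, and with a dashed line of equal change. CYP2B22 lies far below 0 on both axes (−4.64 and −6.27), GSTA1, CYP2C42 and CYP3A29 are above 0 in jejunum and below 0 in ileum, and SULT1A3 is raised only on the ileum axis (2.83).

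The CYP4A genes share the fatty acid ω-hydroxylase family, in which CYP4A24 hydroxylates fatty acids and CYP4A21 takes part in pig bile acid synthesis. CYP4A24 had 6.67 to 9.31 (median 8.03) at day 8, 4.66 to 5.29 (median 4.95) at day 55 and 6.12 to 8.03 (median 6.76) at day 176 in jejunum, and the day 55 pools lay below all pools of both other ages. The differences were −2.88 ± 0.23, adjusted p = 2.42e-15 and then 1.88 ± 0.24, adjusted p = 6.5e-09, a 7.38-fold fall and a 3.67-fold rise. In ileum the levels were 5.22 to 8.38 (median 7.56), 4.99 to 7.47 (median 6.10) and 6.05 to 7.55 (median 6.59), with a smaller fall to day 55 (−1.33 ± 0.24, adjusted p = 4.57e-06) and no call afterwards. CYP4A24 was therefore higher in ileum than in jejunum at day 55 (1.06 ± 0.24, adjusted p = 0.000204) but not called at day 176 (−0.28 ± 0.24, adjusted p = 0.374). CYP4A21 fell in both segments from 4.78 to 8.99 (median 7.25) and 4.33 to 8.29 (median 6.78) to 3.01 to 4.03 (median 3.58) and 3.89 to 5.02 (median 4.16) (−3.65 ± 0.26 and −2.49 ± 0.27). Its higher level in ileum at day 55 (0.65 ± 0.27, adjusted p = 0.0384), seen in 3 of its 4 probes, was lost in 9 of 67 refits, and its higher level at day 176 in jejunum (0.63 ± 0.27, adjusted p = 0.047) in 17, with 2 of its 4 probes moving that way. The segment difference in the age effect was 1.55 ± 0.34 for CYP4A24 and 1.17 ± 0.37 for CYP4A21, but 0.58 and 0.13, without a call, with the day 8 labels exchanged. That of CYP4A21 was also lost without T3 arrays (1.17, adjusted p = 0.0665).

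CYP51, the lanosterol demethylase of cholesterol synthesis, followed the same course in both segments. It had 11.22 to 12.39 (median 11.70), 12.37 to 13.25 (median 12.75) and 11.76 to 12.27 (median 12.07) in jejunum and 11.22 to 12.41 (median 11.65), 12.26 to 12.96 (median 12.68) and 11.49 to 12.68 (median 12.02) in ileum. It was higher at day 55 than at day 8 (1.09 ± 0.14 and 0.99 ± 0.14) and lower again at day 176 (−0.80 ± 0.14 and −0.72 ± 0.14). The segments were not called different at any age, with differences from −0.15 to −0.05.

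Among the bile acid enzymes, CYP7A1, the rate-limiting enzyme of the classical pathway in liver, was well above background on 0 of 67 gut arrays. CYP8B1, which sets the share of cholic acid, was the gene called between segments at day 8 (−0.92 ± 0.27, adjusted p = 0.0405). Its levels there were 3.07 to 4.26 (median 3.99) in jejunum, with 9 of 12 arrays well above background, and 1.72 to 4.18 (median 3.08) in ileum, with 2 of 11. This call was lost in 16 of 67 refits, and with slide as a block the difference was 0.082. It was also called lower at day 55 than at day 8 in both segments (adjusted p = 0.0027 in jejunum and 0.00479 in ileum), higher at day 176 than at day 55 in ileum (1.11 ± 0.28) and lower in ileum at day 55 (adjusted p = 0.00774), with at most 4 of 11 arrays of days 55 and 176 well above background, and the ileum fall to day 55 and the day 55 segment difference turned with the 75th percentile scaling. The jejunum fall was −0.034 with the day 8 labels exchanged (adjusted p = 0.938), and without T3 arrays both falls lost their call (−0.61 and −0.44, adjusted p = 0.165 and 0.324). The course of CYP8B1 is therefore not settled. CYP39A1, an oxysterol hydroxylase, had 6.82 to 8.12 (median 7.72) in jejunum and 6.08 to 6.93 (median 6.40) in ileum at day 55 (−1.17 ± 0.18, adjusted p = 3.36e-07). It was also lower in ileum at day 176 (−0.63 ± 0.18), a call lost without T2 pool 7 of ileum or T2 pool 8 of jejunum and with slide as a block (−0.46, adjusted p = 0.692), and it had fallen in ileum from day 8 to day 55 (−0.80 ± 0.18, adjusted p = 0.000175).

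Of the vitamin D enzymes, CYP24A1, which inactivates the hormone, was well above background in gut, and CYP27B1, which activates it, was so on 5 of 67 arrays. CYP24A1 had 13.64 to 14.69 (median 14.02) and 13.39 to 14.65 (median 13.99) at day 8, and 13.05 to 14.16 (median 13.64) and 11.85 to 13.53 (median 13.15) at day 55. It fell in ileum (−1.04 ± 0.14, adjusted p = 3.33e-09), and the jejunum value was −0.40 ± 0.13, adjusted p = 0.00964, under the fold threshold. Ileum was lower than jejunum at day 55 (−0.74 ± 0.14, adjusted p = 8.22e-06). In ileum the level at day 176 was 13.45 to 13.76 (median 13.51), a rise from day 55 (0.61 ± 0.14, adjusted p = 0.000281) that was lost without T1 pool 9 of ileum at day 55. Each of these differences came mainly from 1 of its 2 probes, with −2.17 and −0.035 for the ileum fall, −1.51 and −0.059 between the segments and 1.26 and 0.065 for the rise. The spread at day 55 in ileum went with treatment, as described further on.

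Signal of the steroid hormone enzymes CYP17A1, CYP21A2 and CYP19A3 was often not well above background in gut. CYP11A1, which starts steroid synthesis from cholesterol, had 3.12 to 4.79 (median 3.77) in jejunum and 3.09 to 5.58 (median 5.35) in ileum at day 55. It was higher in ileum then and at day 176 (1.29 ± 0.25 and 0.88 ± 0.25), and rose in ileum to day 55 (1.27 ± 0.25, adjusted p = 1.6e-05). At day 176 only 1 of its 3 probes was higher in ileum (−0.45 to 3.33), and with slide as a block the difference was 0.38 (adjusted p = 0.822), so that call is not firm. CYP17A1 and CYP21A2, hydroxylases on the way to androgens and corticoids, were well above background in ileum of day 55 on 6 of 11 arrays each and in jejunum of that age on 0 of 11. Their ileum levels at day 55 were 1.59 to 6.89 (median 4.73) and 1.84 to 4.74 (median 3.97), and both fell to day 176 in ileum (adjusted p = 0.0209 and 6.84e-06), CYP21A2 to a signal not well above background on any array. In jejunum CYP21A2 rose from day 55 to day 176 (adjusted p = 0.00085), when it was well above background on 6 of 11 arrays and higher than in ileum (adjusted p = 0.000116, but 0.704 with slide as a block). With the day 8 labels exchanged its jejunum fall from day 8 to day 55 was called (−0.71, adjusted p = 0.0302). Without T3 pool 2 of jejunum at day 8, CYP17A1 lost all of its gut age and segment calls, and with the day 8 labels exchanged it lost that of ileum to day 55 (0.69, adjusted p = 0.232), so its course is not firm. CYP19A1, one of the aromatase genes that make oestrogens, had 6.04 to 6.94 (median 6.40), 6.37 to 7.49 (median 6.98) and 5.50 to 7.29 (median 6.24) in jejunum, and fell from day 55 to day 176 in both segments (−0.63 ± 0.15 and −0.70 ± 0.15), the jejunum call being lost in 5 of 67 refits and with the 75th percentile scaling (−0.08), and the ileum call coming from 1 of its 2 probes (−1.32 and −0.055). CYP19A3 was called in 4 age comparisons but was well above background on no gut array, so no fold is given, and CYP19A2 did not pass the filter. The pig aromatase genes are near-identical and their probes may share signal.

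The glutathione S-transferases differed in course. GSTA1, an alpha class enzyme that conjugates electrophiles and peroxides, had 11.92 to 13.88 (median 13.36) in jejunum and 12.64 to 14.52 (median 13.71) in ileum at day 8. At day 55 it had 12.84 to 15.22 (median 13.98) in jejunum and 8.16 to 12.51 (median 9.07) in ileum, where all pools were below those of ileum at day 8 and of jejunum at day 55. The ileum fall was −3.96 ± 0.52, adjusted p = 5.09e-09, 15.5-fold, while jejunum was not called (0.67 ± 0.51, adjusted p = 0.286), and the segments differed in this by −4.63 ± 0.73, adjusted p = 1.29e-06. At day 176 the ranges were 7.90 to 15.07 (median 13.73) and 7.61 to 13.23 (median 9.40), with the lowest jejunum value in T2 pool 8, which stood apart. Ileum was 19.5-fold lower at day 55 (−4.29 ± 0.52, adjusted p = 1.37e-09) and 10.2-fold lower at day 176 (−3.35 ± 0.52, adjusted p = 6.88e-07). The latter was −4.16 without the 5 arrays that stood apart and −4.67 with slide as a block, where its adjusted p was 0.248.

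GSTO1, an omega class enzyme that reduces rather than conjugates many of its substrates, rose in both segments. It had 13.26 to 15.71 (median 14.29) and 16.73 to 17.60 (median 17.29) in jejunum, without overlap, and 13.68 to 15.91 (median 14.43) and 15.37 to 16.41 (median 15.73) in ileum, which overlapped. The rise was 7.1-fold in jejunum (2.83 ± 0.20, adjusted p = 1.52e-17) and 2.12-fold in ileum (1.08 ± 0.21, adjusted p = 1.11e-05), a difference of −1.74 ± 0.29, adjusted p = 2.66e-06. Ileum was lower at day 55 (−1.46 ± 0.21, adjusted p = 4.55e-08), with no overlap. By day 176 GSTO1 had fallen in jejunum (−0.73 ± 0.21, adjusted p = 0.00284), and the segments were no longer called different by the fold threshold (−0.53 ± 0.21, adjusted p = 0.0341).

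Of the sulfotransferases, SULT1A3 and SULT1E1 were higher in ileum than in jejunum at both later ages. SULT1A3, which sulfates phenols and catecholamines such as dopamine, had 9.75 to 12.25 (median 10.45) in jejunum and 10.23 to 12.27 (median 10.96) in ileum at day 8. At day 55 it had 9.78 to 12.71 (median 10.40) and 13.34 to 14.29 (median 13.79), and at day 176 8.86 to 11.53 (median 10.88) and 12.77 to 14 (median 13.71). All ileum pools of both later ages lay above all jejunum pools of the same age and above all ileum pools of day 8. The rise in ileum to day 55 was 7.13-fold (2.83 ± 0.25, adjusted p = 2.04e-14), jejunum was not called (−0.24 ± 0.24, adjusted p = 0.435), and the difference between both was 3.07 ± 0.35, adjusted p = 9.1e-10. Ileum exceeded jejunum 9.92-fold at day 55 (3.31 ± 0.25, adjusted p = 8.09e-16) and 7.35-fold at day 176 (2.88 ± 0.25, adjusted p = 9.07e-14, and 2.69 with slide as a block, adjusted p = 0.0477).

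SULT1E1, the oestrogen sulfotransferase, was fitted after its values were seen, with the missing spot kept as missing, which leaves 10 arrays of jejunum at day 176. It had 7.02 to 9.88 (median 8.02) and 7.11 to 10.31 (median 8.30) at day 8, 4.66 to 10.65 (median 5.67) and 11 to 12.95 (median 12.47) at day 55, and 7.07 to 12.38 (median 9.19) and 11.87 to 14.21 (median 13.06) at day 176, in jejunum and ileum in turn. The segments overlapped at day 8, separated at day 55 and overlapped again in part at day 176. It fell in jejunum to day 55 (−2.03 ± 0.49, adjusted p = 0.000525) and rose in ileum (3.99 ± 0.50, adjusted p = 1.5e-09, 15.9-fold), and ileum exceeded jejunum 74.8-fold at day 55 (6.23 ± 0.50, adjusted p = 9.52e-15) and 12-fold at day 176 (3.58 ± 0.52, adjusted p = 1.22e-07). The highest jejunum value of day 55 was that of T1 pool 11, and the next was 7.36 in T2 pool 7. Without the 5 arrays that stood apart the segment differences were 6.22 and 3.93. SULT1E1 was in no fit with slide as a block, and its calls were not followed in the refits without 1 array. SULT2A1, which sulfates steroids and bile acids, was near background at day 8, with 1.62 to 3.92 (median 2.56) in jejunum. It rose to day 55 in both segments (2.21 ± 0.36 and 1.19 ± 0.37) and on to day 176 in ileum (1.12 ± 0.37), and its higher level in ileum at day 176 (1.11 ± 0.37, adjusted p = 0.0144) was lost without T3 pool 2 of ileum and with slide as a block (1.32, adjusted p = 0.606). The ileum rise to day 55 was lost without T3 arrays (0.83, adjusted p = 0.12).

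**Figure D3:**
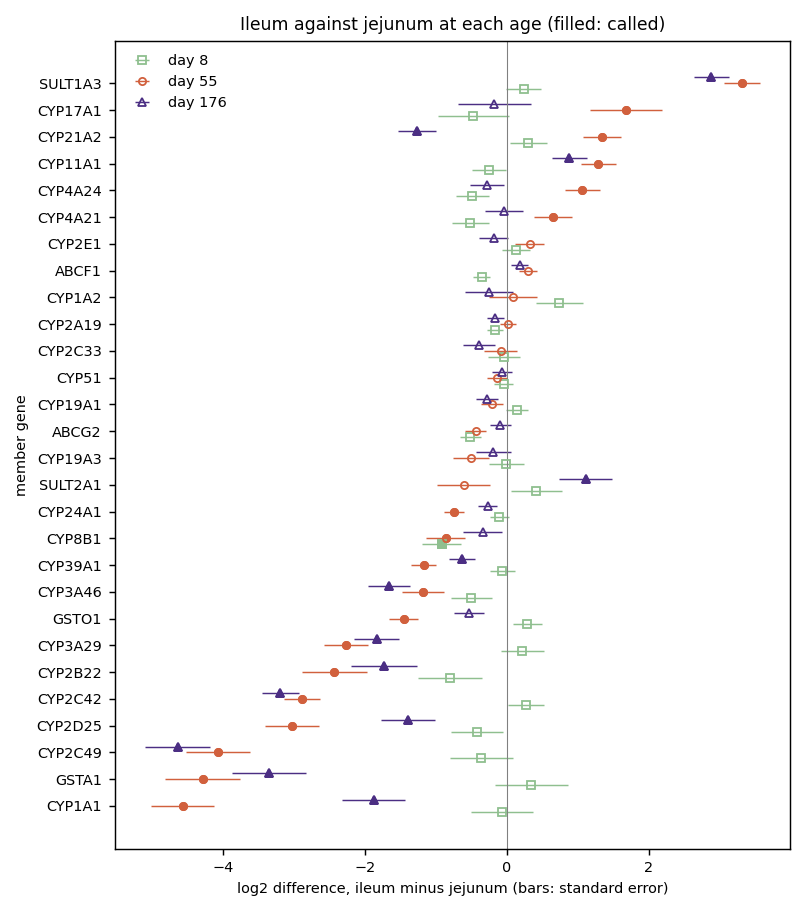
Ileum minus jejunum log2 difference at days 8, 55 and 176, with SE bars and filled points for called differences. At day 8 CYP8B1 alone is called, while at day 55 GSTA1 (−4.29) and CYP2C49 (−4.07) are among the lowest and SULT1A3 (3.31) the highest of the 28 genes tested.

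Of the ABC genes, ABCG2 is an efflux pump of the apical membrane, and ABCF1 lacks membrane spans and acts in translation. ABCG2 had 11.50 to 12.25 (median 12.04), 9.90 to 11.69 (median 11.12) and 9.67 to 10.90 (median 10.00) in jejunum, and 9.70 to 12.05 (median 11.54), 9.74 to 11.29 (median 10.40) and 9.55 to 10.54 (median 10.06) in ileum. It fell from day 8 to day 55 in both segments (−1.02 ± 0.15, adjusted p = 6.84e-08 and −0.94 ± 0.15, adjusted p = 4.54e-07) and on to day 176 in jejunum (−0.80 ± 0.15, adjusted p = 1.83e-05). With the day 8 labels exchanged the jejunum fall to day 55 was −0.50, under the fold threshold, and the segments were called different in their fall (−0.96, adjusted p = 0.000253). The segments did not differ by the call at any age, with differences from −0.52 to −0.09. ABCF1 fell in jejunum to day 55 (−0.70 ± 0.12, adjusted p = 2.17e-06), from 9.49 to 10.21 (median 9.79) to 8.45 to 9.71 (median 9.11), and had 8.22 to 9.73 (median 9.67) and 8.47 to 9.67 (median 9.49) in ileum, with no call (−0.05 ± 0.12, adjusted p = 0.757). With the day 8 labels exchanged the jejunum fall was −0.35, under the fold threshold. The difference in age effect between the segments was 0.65 ± 0.17, adjusted p = 0.00184, but −0.057 with the day 8 labels exchanged, and it was lost without T1 pool 11 of ileum at day 8, which stood apart.

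Blood at day 8 was compared with gut of the same pools of piglets, on the scale of the 35 day 8 arrays. Of 29 members tested, 28 were called against jejunum (12 higher and 16 lower in blood) and 27 against ileum (12 and 15), where 75.6% and 74% of all 32953 genes were called. All genes split into 41.6% higher and 34% lower against jejunum and 40.6% and 33.4% against ileum. Their median difference was −1.19 and −0.89, against 0.21 over all genes in both comparisons. Blood was scanned on another day than gut of day 8, so tissue and scan cannot be told apart. Of the 8 epithelial markers, all were lower in blood, and of 10 leukocyte markers all were higher.

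GSTA1, CYP3A29, CYP2C42, CYP2C49 and CYP2B22 were not well above background on any blood array. GSTA1 had 0.97 to 5.30 (median 1.69) in blood, and 10.52 to 12.61 (median 12.05) in jejunum and 11.26 to 13.29 (median 12.42) in ileum. It was at least 63.2-fold lower than in jejunum and at least 80.6-fold lower than in ileum (adjusted p = 3.09e-20 and 2.71e-20). CYP3A29 was at least 60.4-fold and at least 64.7-fold lower, CYP2C42 at least 14.9-fold and at least 17.9-fold, CYP2B22 at least 12.1-fold and at least 6.69-fold, and CYP2C49 at least 10.6-fold and at least 8.28-fold, all without overlap with gut. Pools of blood did not overlap with those of jejunum for 20 of the 29 members, and with those of ileum for 16. Of all genes, 35.2% and 31.4% did not. CYP3A46 was measured on both sides, with 5.08 to 6.72 (median 5.71) in blood and 11.97 to 13.47 (median 12.76) in jejunum, 122-fold lower (−6.93 ± 0.25, adjusted p = 5.91e-21). SULT1E1 was at least 1.78-fold lower in blood than in jejunum. ABCF1 was 7.05-fold lower than in jejunum (−2.82 ± 0.14, adjusted p = 6.5e-18) and ABCG2 2.9-fold lower (−1.54 ± 0.13, adjusted p = 7.14e-12).

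Other members were higher in blood. CYP19A1 had 10.10 to 11.23 (median 10.76) in blood and 4.93 to 5.73 (median 5.27) in jejunum, and was 42.5-fold higher than in jejunum (5.41 ± 0.14, adjusted p = 1.29e-24) and 39.7-fold higher than in ileum. SULT1A3 had 12.69 to 13.32 (median 12.96) against 8.38 to 10.86 (median 9.06), 13-fold higher (3.70 ± 0.20, adjusted p = 1.95e-16), and GSTO1 had 14.95 to 15.56 (median 15.29) against 11.95 to 14.59 (median 13.06), 4.37-fold higher (2.13 ± 0.24, adjusted p = 3.57e-09). The groups did not overlap for these 3 genes, as for 35.2% of all genes against jejunum and 31.4% against ileum. CYP21A2 was 7.77-fold higher than in jejunum, at 3.51 to 6.78 (median 4.96) in blood. Of the members named with gut above, CYP2D25, CYP39A1 and CYP51 were also called lower in blood than in both segments (CYP2D25 −3.26 ± 0.33 and CYP51 −1.55 ± 0.15 against jejunum), as were CYP4A21 and CYP4A24. CYP2A19, CYP2C33 and CYP11A1 were called higher (0.94 ± 0.16, 1.26 ± 0.15 and 0.62 ± 0.20 against jejunum), CYP11A1 against jejunum losing its call in 8 of 35 refits. Their probes were divided, with 3 of 6 for CYP2A19 (−2.05 to 5.14) and 2 of 3 for CYP11A1 (−0.33 to 1.44) higher in blood than in jejunum. CYP1A2 was at least 2.88-fold higher than in jejunum, with 2 of 12 blood arrays well above background, and CYP2E1 at least 1.31-fold, with 1, while CYP1A1, CYP19A3 and SULT2A1 were well above background on no blood array. When arrays were scaled by their 75th percentile in place of quantiles, the median of all genes moved to 1.27 against jejunum and to 1.43 against ileum. With this scaling 15 of 27 called members were higher in blood in each comparison, where 83.1% and 83.7% of all genes were called. CYP24A1, lower in blood as quantile normalised, was then higher (0.85 and 1.02). CYP8B1 against jejunum and CYP4A21 and CYP4A24 against ileum also turned, so the direction of these 4 genes in blood is not settled.

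**Figure D4:**
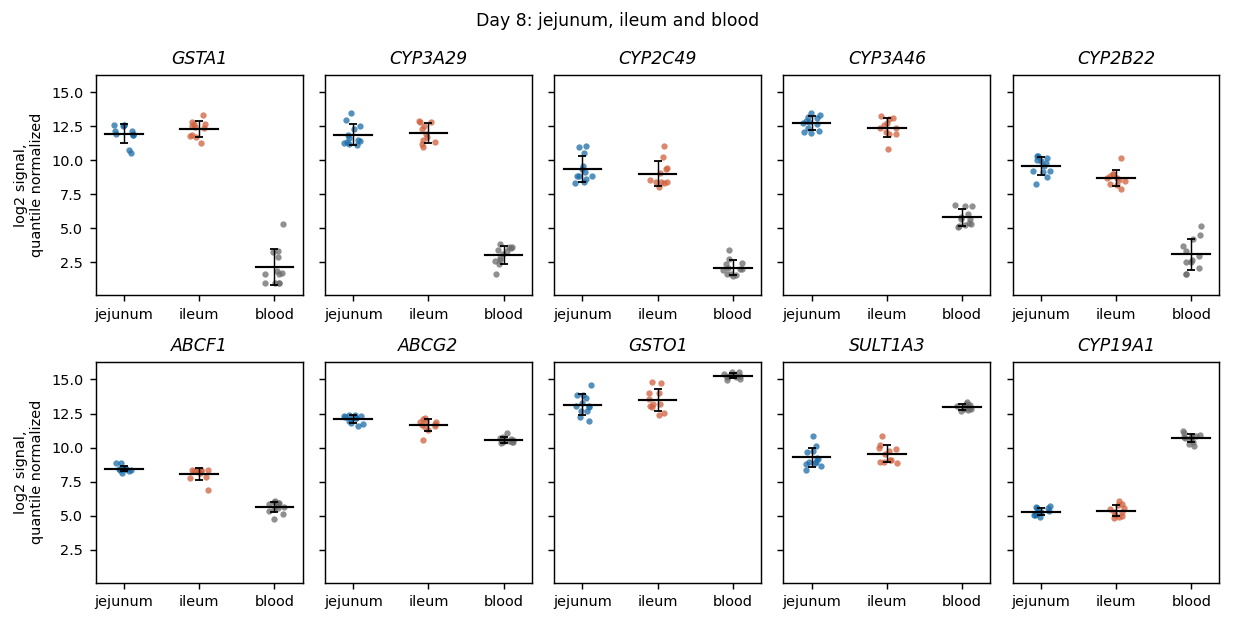
Log2 processed signal of 10 genes in blood, jejunum and ileum at day 8 (quantile normalised over 35 arrays), points being pools and bars the SD around the mean. GSTA1, CYP3A29, CYP2C49 and CYP2B22 lie near background in blood, while CYP19A1, SULT1A3 and GSTO1 lie above both gut segments. Levels are not to be compared between genes.

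The antibiotic, alone or with handling, was compared with T1 within each tissue and age in limma fits per age. At day 8 no member was called in jejunum, ileum or blood, out of 26 tested in each, where 0.0212%, 1.35% and 0.00694% of all genes were called in any of the 3 contrasts. At day 176 no member of 24 was called in jejunum or ileum, against 2.1% and 0.0106% of all genes. The members with an unadjusted p below 0.05 in T2 vs. T1, T3 vs. T1 and T3 vs. T2 numbered 3, 2 and 1 in jejunum at day 8 (all genes 7.16%, 3.41% and 3.89%), 6, 4 and 2 in ileum (19%, 25% and 8.99%) and 5, 3 and 1 in blood (3084, 2030 and 1156 of all 28832 genes). They numbered 4, 2 and 4 in jejunum (25.2%, 6.53% and 17.8%) and 1, 0 and 0 in ileum (8.22%, 9.59% and 1.27%) at day 176. By the study's methods pools 1, 5 and 9, and so on up to 4, 8 and 12, hold piglets of the same sows, so the treatments are paired by sow set. With the sow set as a block, 1 member was called in jejunum at day 8 (CYP21A2, T2 vs. T1, −3.13) and 1 in ileum (CYP8B1, T3 vs. T2, 1.79). Both genes were well above background on few arrays, so these sizes are not firm. No share of all genes was computed for that fit.

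At day 55, 4 of 28 members were called in each segment, against 12.7% of all genes in jejunum and 16% in ileum. With the sow set assumed from the pool number as a block there were again 4 in each, with CYP11A1 (T3 vs. T1, −0.85) in place of CYP17A1 in ileum. They were 4 higher in jejunum and 3 higher in ileum, or 3 higher and 4 higher of 4 with arrays scaled by their 75th percentile. With that scaling 15.2% and 16.9% of all genes were called in T3 vs. T1 in jejunum and ileum. The jejunum calls were all between T3 and T1, where 12.2% of all genes were called (6.85% higher and 5.33% lower). ABCF1 had 8.50, 8.65, 8.54 and 9.03 in the T1 pools, 9.19, 9.38 and 9.11 in T2 and 9.81, 9.46, 9.75 and 9.61 in T3, on the scale of the 22 arrays of day 55. All T3 pools were above all T1 pools, and T2 lay between (0.97 ± 0.19, adjusted p = 0.00166). ABCG2 had 12.45, 12.33, 12.22 and 11.93 in T1, 12.83, 12.90 and 12.74 in T2 and 13.15, 12.91, 12.96 and 12.69 in T3, again without overlap of T3 and T1 (0.69 ± 0.19, adjusted p = 0.0199). CYP51 rose by a like amount (0.59 ± 0.17, adjusted p = 0.0307), from 12.50 to 12.70 in T1 to between 12.85 and 13.42 in T3. CYP2D25 had 13.03 to 14.23 in T1 and 13.80 to 14.88 in T3, which overlapped (1.07 ± 0.32, adjusted p = 0.0329). On leaving out 1 array at a time ABCF1 was called in all 22 refits, ABCG2 lost its call without T3 pool 1 or T1 pool 12, CYP51 without T3 pool 1, 2 or 3 or T1 pool 10 or 12, and CYP2D25 in 6 refits (differences from 0.91 to 1.32). Without T3 pool 1, 1 of the 4 calls was kept. The T3 arrays of day 55 lay on other slides than T1 and T2, so T3 and slide cannot be told apart, and 4 of 9 leukocyte markers (LCK, CD3D, CD2 and CD8A) and the epithelial markers ANPEP and KRT8 were also higher in T3 (2 of 8), against 6.85% of all genes. Of the 4 probes each of ABCF1, ABCG2 and CYP51, 3 moved this way. None of these T3 vs. T1 differences was called different between the segments (limma). Ileum minus jejunum, they were −0.47 for ABCF1 (adjusted p = 0.315), −0.14 for ABCG2 (0.809), −0.41 for CYP51 (0.353) and −1.29 for CYP2D25 (0.0969). In ileum too, all T3 pools of ABCF1 (9.70 to 9.76) lay above all T1 pools (8.52 to 9.49).

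In ileum at day 55 CYP24A1 differed from T1 in both treated groups. Its values were 11.73, 11.92, 12 and 12.50 in T1, 13.44, 13.36 and 13.47 in T2 and 13.09, 13.17, 13.15 and 13.06 in T3. All treated pools were above all T1 pools, by 1.39 ± 0.24, adjusted p = 0.0245 in T2, where 0.08% of all genes were called, and by 1.08 ± 0.22, adjusted p = 0.00252 in T3, where 14.8% were. The T2 call was lost in 5 of 22 refits, those without T2 pool 5, 6 or 7 or T1 pool 9 or 11, with differences from 1.29 to 1.55, and with the 75th percentile scaling (1.15) or with ileum fitted alone (1.29). Most of the difference came from 1 of the 2 probes (2.63 and 0.15 in T2, 1.94 and 0.23 in T3). In jejunum CYP24A1 had 12.99 to 14.13 with all groups overlapping, and the T3 vs. T1 difference was greater in ileum by 1.21 ± 0.31 (adjusted p = 0.0281, all genes 5.96%), while for T2 vs. T1 the corresponding value was 1.28 (adjusted p = 0.129). CYP17A1 was lower in T3 than in T2 (adjusted p = 0.0288, all genes 8.26%, lost in 5 of 22 refits), with 0 of 4 T3 arrays well above background and no fold given, and CYP1A2 and CYP19A3 were called with both sides not well above background. For CYP17A1, CYP1A2 and CYP19A3 these treatment differences were not called different between the segments. Of the probes, 42.4 to 52.0% were well above background on the T3 ileum arrays, and 62.6 to 73.1% on those of T1 and T2.

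**Figure D5:**
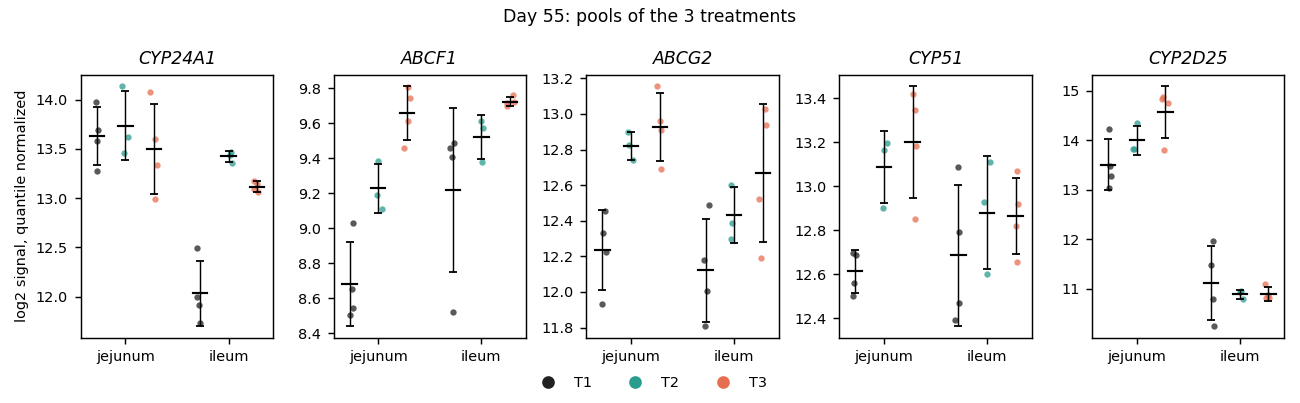
Log2 processed signal of CYP24A1, ABCF1, ABCG2, CYP51 and CYP2D25 by treatment at day 55 in jejunum and ileum (quantile normalised over 22 arrays), points being pools, lines group means and bars the SD. In ileum all T2 and T3 pools of CYP24A1 lie above the T1 pools, and in both segments all T3 pools of ABCF1 lie above the T1 pools. Levels are not to be compared between genes.

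Regulators, partner enzymes and glutathione genes were examined as lists chosen for their role. Of 33 receptors and other regulators of these enzymes, 18 were on the array and 17 tested in gut. At day 55, 10 were lower and 1 higher in ileum than in jejunum (median −0.83), and at day 176, 7 lower and 1 higher (−0.37). Of all genes, 20% were lower and 19.8% higher at day 55 (median 0.03) and 14.8% and 14% at day 176 (−0.07), and epithelial markers were lower in ileum at both ages as well. CAR (NR1I3), which induces CYP2B and other genes, was the lowest (−4.04 ± 0.27, adjusted p = 9.82e-18 at day 55 and −4.00 ± 0.27, adjusted p = 2.05e-17 at day 176), and VDR, the vitamin D receptor that induces CYP24A1, was lower by −2.63 ± 0.25, adjusted p = 1.06e-12 and −1.28 ± 0.25, adjusted p = 3.71e-05. PXR (NR1I2) and HNF4A were lower at day 55 (−1.35 ± 0.17, adjusted p = 3.06e-09 and −1.16 ± 0.16, adjusted p = 4.05e-08), and the glucocorticoid receptor NR3C1 was higher (0.76 ± 0.12, adjusted p = 2.04e-07). From day 8 to day 55 there were 3 higher and 6 lower in jejunum and 2 higher and 8 lower in ileum, against 18.1% and 18.9% of all genes in jejunum and 24.4% and 23% in ileum.

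The partner enzymes include POR, which passes electrons to all microsomal CYP enzymes, and other drug-metabolising families, with 24 of 47 on the array and tested. At day 55, 14 were lower and 2 higher in ileum than in jejunum (median −0.77), and at day 176, 15 lower and 2 higher (−0.90), against 1 lower, POR, at day 8, where the shares of all genes are those given above. Examples at day 55 were POR (−1.15 ± 0.18, adjusted p = 5.54e-07), the epoxide hydrolase EPHX1 (−2.86 ± 0.62, adjusted p = 0.000104), the quinone reductase NQO1 (−1.61 ± 0.25, adjusted p = 2.39e-07) and, higher in ileum, the aldose reductase AKR1B1 (1.83 ± 0.20, adjusted p = 3.7e-11). Of 8 glutathione genes tested, 2 were lower and 1 higher in ileum at day 55, the latter being the peroxidase GPX1 (1.2 ± 0.20, adjusted p = 1.45e-06). In jejunum at day 55, 7 of 17 regulators, 5 of 24 partner enzymes and 1 of 10 glutathione genes were higher in T3 than in T1 (all genes 6.85%) and none lower, VDR, NR1I2, HNF4A, POR and EPHX1 among them, and in ileum VDR was the regulator called in that contrast.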

How the data were processed

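Labelled RNA of 79 pools of 4 piglets each was hybridised by the authors to 1-colour porcine Agilent arrays with 43603 non-control probes. The deposited intensity values are the processed signals of Agilent Feature Extraction (version 10.7.3.1 per the labels), that is, background-subtracted and spatially detrended, with weak spots raised to a small positive value. The deposited log2 value table was made by the authors in GeneSpring with quantile normalisation. It served as a check only, since of its 45 columns named for gut of days 8 and 55, 43 matched a scanner file (r above 0.5 over probes), none of them of the named tissue and day, whereas all 34 columns of blood and day 176 matched their own. Groups were taken from the labels of the scanner files. All gut results that involve days 8 and 55 thus rest on those labels, and no fit used the labels of the value table. The refit with day 8 labels exchanged does not cover this conflict, which also concerns the day. Names came from RefSeq accessions, which gave 5461 probes (12.52%) a symbol, and no sequences are shown.

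Here log2 processed signals were quantile normalised over the arrays of each fit in R 4.3.3 with limma 3.58.1. Probes below the 20th percentile on some array of every group, or with a flagged spot on any array, were dropped (36717 probes kept in gut), and probes of a gene were averaged. Linear models with 1 mean per tissue, age and treatment gave contrasts with Benjamini-Hochberg adjustment over all genes, and scripts were tested on simulated data. Pools 1 to 4, 5 to 8 and 9 to 12 belong to T3, T2 and T1. Equal pool numbers share the same piglets across tissues at day 8 by the study's methods, where deviations from the group means correlated by 0.176 on average over 11 pairs. At the other ages the number gave 0.0635 and 0.0463 and is not taken as a pairing. Pools of a group correlated at 0.865 to 0.991 and none was identical. The number of arrays limits precision, and p-values measure the spread between pools.

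Named were, in each contrast, the 10 called genes with the highest and the 10 with the lowest difference, all called genes in treatment contrasts, and a list of core enzymes whatever their result. The genes and lists were chosen with earlier results of these data known. Alternatives covered the 75th percentile scaling, normexp background (offset 50), the filters, an intensity trend, slide and replicate blocks, T1 arrays only, each tissue alone, the methods' analysis of variance and leaving out each array. Added after seeing the data were fits without the 5 arrays that stood apart, without T3 arrays, with missing spots kept and with day 8 labels exchanged.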

Additional observations from a re-analysis of the deposited data

Results flagged for a closer look

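Of 16 groups of 4 pools examined for each treatment result named at day 55, 1 pool lay far from the others, which chance alone gives in about 1 in 20 groups. It was T3 pool 4 of jejunum for CYP2D25, at 13.80, where the other 3 pools were at 14.76 to 14.88.

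The age difference from day 8 to day 55 differed between ileum and jejunum, by the interaction term in limma, for 17 genes. Ileum minus jejunum, it was −4.63 for GSTA1, −4.50 for CYP1A1, −3.71 for CYP2C49, −3.16 for CYP2C42, −2.60 for CYP2D25, −2.48 for CYP3A29, −1.74 for GSTO1, −1.63 for CYP2B22, −1.11 for CYP39A1 and −0.64 for CYP24A1. It was 3.07 for SULT1A3, 2.15 for CYP17A1, 1.55 for CYP4A24, 1.54 for CYP11A1, 1.17 for CYP4A21, 1.04 for CYP21A2 and 0.65 for ABCF1. That for CYP24A1 was lost in 4 of 67 refits, those without T3 pool 2 or T1 pool 10 of ileum at day 8 or T3 pool 2 or T2 pool 6 of jejunum at day 55, and that for CYP21A2 without T2 pool 6 of jejunum at day 176.

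The difference from day 55 to day 176 differed between the segments for 7 genes, with −2.61 for CYP21A2, −1.85 for CYP17A1, −1.35 for CYP4A24, 0.92 for GSTO1, 1.63 for CYP2D25, 1.72 for SULT2A1 and 2.69 for CYP1A1. Without the 5 arrays that stood apart, CYP2D25 was 0.88 (adjusted p = 0.032) and CYP1A1 3.29. In the terms of both intervals CYP1A1, CYP17A1 and CYP21A2 were not well above background on any array of at least 1 group, CYP1A1 on none in 3 of the 4 groups of the first, so their sizes are not firm. With the day 8 labels exchanged the first-interval term of CYP17A1 was 1.2 (adjusted p = 0.187), of CYP4A24 0.58 and of CYP4A21 0.13, without a call, and CYP8B1 was called (−1.78). For CYP24A1 the T3 vs. T1 difference at day 55 was greater in ileum than in jejunum by 1.21.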

How the results depend on the processing

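On leaving out 1 array, most calls of age, segment and blood kept their direction and side of the threshold. Of these 178 calls, 29 were lost in at least 1 refit without 1 array. With the treatment calls there were 188, of which 34 were lost and 0 turned. Some other settings kept fewer calls in single comparisons. Normexp background kept 4 of 11 in ileum from day 55 to 176, and T1 arrays only kept 6 of 16 in jejunum. Slide as a fixed block kept 2 of 13 between segments at day 176. An intensity trend kept all 11, 17 and 13 calls of these comparisons. With normexp background the counts of called members were 11 and 10 in jejunum and 14 and 4 in ileum (day 55 against 8 and day 176 against 55), 0, 11 and 8 between segments at the 3 ages, 10 and 4 for the age by segment differences and 1 for treatment in ileum at day 55. The calls over all genes fell too, to 18.5% and 15.2% in jejunum and 25.6% and 11.3% in ileum. Between segments they were 0.701%, 19% and 14.9%, and for the age by segment differences 19.8% and 15.3%. For treatment in ileum at day 55 they were 0.524% (T2 vs. T1), 4.74% (T3 vs. T1) and 0.887% (T3 vs. T2). With T1 arrays only they were 11 and 6 in jejunum, 12 and 7 in ileum, 0 between segments at day 8 and 4 for the later age by segment difference. Slide as a random block (consensus correlation 0.102) gave 0 between segments at day 8 and 11 and 4 for the age by segment differences, and slide as a fixed block gave 0 at day 8 and 2 at day 176. No share of all genes was computed for these slide fits or for T1 arrays only. The 75th percentile scaling gave 16 for the later age by segment difference and 1 for treatment in ileum at day 8. Of all genes, 53.2% were then called for the former. For the latter they were 0.0673% (T2 vs. T1), 1.73% (T3 vs. T1) and 0.184% (T3 vs. T2). This scaling moved the all-gene median to 0.49 for jejunum and −0.15 for ileum (day 176 against 55), 0.45 for ileum (day 55 against 8), and 0.46 and −0.30 between segments at days 55 and 176.

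Treatment counts were 1 in ileum at day 55 with the filter on well above background, 2 there with the methods' analysis of variance and 7 in jejunum at day 55 with the tissue alone. Without the 5 arrays that stood apart they were 1 and 1 in jejunum and ileum at day 8 and 2 in jejunum at day 176. With the filter on well above background 0.117%, 8.63% and 1.93% of all genes were called there in T2 vs. T1, T3 vs. T1 and T3 vs. T2. No share of all genes was computed for the other fits named here. The T2 vs. T1 call of CYP24A1 in ileum at day 55 was lost with the 75th percentile scaling and with the tissue alone. Leaving out 1 array gave counts of 16 to 18 and 13 to 18 in jejunum, 19 to 23 and 9 to 13 in ileum, 0 to 1, 17 to 19 and 12 to 14 between segments, 15 to 18 and 6 to 8 for the age by segment differences, 26 to 30 and 27 to 28 for blood, and for treatment 0 to 1 and 0 to 2 at day 8, 1 to 4 and 3 to 6 at day 55, 0 to 1 and 0 to 0 at day 176 (jejunum and ileum in turn) and 0 to 1 in blood.

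The sow set as a replicate block gave treatment counts of 1 in jejunum and 1 in ileum at day 8, 4 and 4 at day 55, and 0 at day 176 and in blood. No share of all genes was computed with replicate blocks. With pool number as a replicate block, the age counts were 16 and 17 in jejunum and 22 and 12 in ileum, the age by segment counts 17 and 7 and those of blood 28 and 27, and with pools of a day as pairing block the segment counts were 1, 18 and 12.

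Signs turned as follows, and the cause was not tested. With the 75th percentile scaling these were CYP24A1 in blood (0.85 against jejunum, 1.02 against ileum), CYP4A21 (0.063) and CYP4A24 (0.22) in blood against ileum, CYP8B1 in blood against jejunum (1.62), in ileum from day 8 to 55 (0.40) and between segments at day 55 (0.36), and CYP19A3 in jejunum from day 55 to 176 (0.26). With normexp they were CYP8B1 in blood against jejunum (0.26), CYP19A3 in ileum from day 8 to 55 (−0.028), from day 55 to 176 (0.085) and in T3 vs. T2 (−0.065), and CYP1A2 in T3 vs. T1 (−0.078). CYP2D25 (−0.040, later age by segment difference) and SULT2A1 (−0.025, ileum day 55 against 8) turned with T1 arrays only, CYP8B1 between segments at day 8 with slide as a fixed block (0.082), and ABCF1 (−0.057, age by segment) with day 8 labels exchanged. Signal over background limits CYP1A2, CYP2E1, CYP8B1, CYP17A1, CYP19A3 and CYP21A2, which were well above background on few arrays. Fits with no filter, an intensity trend, missing spots kept or without T3 arrays moved no count by over 1.5 times.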
